A study of Homo sapiens with 12 samples.

Results

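The 9 protein-coding genes described here are ones whose read counts did not overlap between exosomes labelled Ang and exosomes labelled Con. They are RAI1, PABPC1L and STX4, which were higher in Ang exosomes, and COASY, CYTH2, DEPDC7, FUBP3, WASF2 and ZNF598, which were lower. The 9 were picked by name from the 11973 genes listed in exosomes because all 3 Ang libraries lay on one side of all 3 Con libraries, so their Ang against Con levels in exosomes are given as a description, with no test of the 9 used as support. All 9 passed the filter on low counts in exosomes (8327 genes) and in cells (13331 genes). The reads of the same genes in whole cells took no part in the choice.

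The RNA came from AC16, a human cell line derived from adult ventricular heart cells fused to a transformed fibroblast line, and from its exosomes, the small membrane-bound vesicles released into the medium. There were 4 groups of 3 libraries: Ang exosomes, Con exosomes, Ang cells and Con cells. The labels give neither what Con and Ang stand for nor a dose or time, and all groups share the AC16 line. The series looked for small RNAs of exosomes from hypertrophic cardiomyocytes and for proteins that bind them, and only the longer gene transcripts are described here.

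The 9 genes have varied roles. RAI1 encodes a nuclear chromatin-binding regulator of transcription that is dosage-sensitive in Smith-Magenis syndrome, PABPC1L a cytoplasmic poly(A)-binding protein best known from oocytes, FUBP3 a KH-domain protein that binds single-stranded nucleic acid, and ZNF598 a ubiquitin ligase that marks collided ribosomes. STX4 (syntaxin 4) is a plasma membrane SNARE that drives fusion of secretory vesicles, CYTH2 (cytohesin-2) an exchange factor that loads ARF GTPases with GTP, and WASF2 (WAVE2) links Rac to actin branching by the Arp2/3 complex. COASY carries out the last steps of coenzyme A synthesis, and DEPDC7 is a DEP-domain protein about which little is established. A transcript found in a vesicle has been made in the cell and then exported, so its level there can depend on both steps.

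For 8 of the 9 genes RefSeq gives a promoter window on GRCh38.p14, running 250 bases before to 50 bases after a transcription start. WASF2 was not matched. The windows of the 3 genes that were higher in Ang exosomes are printed 5′ to 3′ on the plus strand, and those of the lower genes are not printed. Any part of these letters in the exosome levels was not tested. Capitals mark GC boxes, the letters GGGCGG or their reverse complement CCGCCC, and overlapping matches run together. The windows lie at chr17:17681208-17681507 (RAI1), chr20:44909810-44910109 (PABPC1L) and chr16:31032845-31033144 (STX4, the first of its listed starts).
RAI1: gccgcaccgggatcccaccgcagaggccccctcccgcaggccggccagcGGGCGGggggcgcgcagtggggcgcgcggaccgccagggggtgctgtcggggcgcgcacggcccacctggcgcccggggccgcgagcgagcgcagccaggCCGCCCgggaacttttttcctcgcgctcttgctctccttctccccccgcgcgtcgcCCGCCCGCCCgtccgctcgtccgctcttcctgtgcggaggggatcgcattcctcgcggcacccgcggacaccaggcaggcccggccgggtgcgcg
PABPC1L: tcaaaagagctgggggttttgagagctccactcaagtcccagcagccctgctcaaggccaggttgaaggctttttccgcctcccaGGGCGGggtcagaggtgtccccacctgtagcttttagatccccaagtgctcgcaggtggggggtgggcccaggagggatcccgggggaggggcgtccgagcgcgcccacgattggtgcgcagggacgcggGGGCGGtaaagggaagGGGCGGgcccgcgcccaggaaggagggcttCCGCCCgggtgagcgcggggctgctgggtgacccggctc
STX4: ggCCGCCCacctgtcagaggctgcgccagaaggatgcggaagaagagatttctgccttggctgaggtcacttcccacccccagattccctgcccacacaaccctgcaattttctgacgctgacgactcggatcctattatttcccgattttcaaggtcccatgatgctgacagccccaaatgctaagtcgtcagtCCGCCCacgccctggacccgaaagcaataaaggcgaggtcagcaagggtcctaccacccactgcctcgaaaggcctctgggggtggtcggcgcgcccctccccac
The RAI1 window held 4 GC boxes, the PABPC1L window 4 and the STX4 window 2. All 8 matched windows held at least 1, against 73.4% of 6946 windows of genes tested in exosomes and 44.6% of all 27305 windows. CACGTG, the E-box letters, occurred in 1 of the 8 windows, that of FUBP3, against 10.8% of windows of tested genes. CCAAT was present in 2 of the 8 windows (PABPC1L and CYTH2), against 38% of windows of tested genes. None of the 8 held TGACGTCA, TATAAA or TGANTCA, which were present in 3.6%, 5.44% and 4.02% of windows of tested genes. Both strands were searched for each motif, and a match only describes the letters of these windows.

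Total gene reads were 535442 to 587783 in Ang exosomes and 717263 to 745311 in Con exosomes. Cells were sequenced deeper, with 9202471 to 10623090 in Ang and 9442962 to 11212674 in Con. Totals were thus lower in every Ang exosome library, and of the 8327 genes tested in exosomes, 1762 (21.2%) had non-overlapping reads as the 9 genes do. Of these, 82 (0.985%) were higher in Ang and 1680 (20.2%) were lower in Ang, as shares of the tested genes. On CPM, the read count divided by sequencing depth after trimmed mean of M-values scaling, the shares were 5.18% higher and 5.6% lower, and all 9 genes also stayed apart on that scale. The median biological coefficient of variation was 0.394 in exosomes and 0.152 in cells. Of 10 cardiomyocyte markers 2 were listed in exosomes (ACTN2 and GATA4) and 6 in cells. Their levels summed to 29.6 to 59.5 CPM in Ang exosomes and 15.8 to 52.8 CPM in Con exosomes. In cells they summed to 33.1 to 38.1 CPM in Ang and 28.9 to 34.5 CPM in Con, and MYH6, MYH7, MYL2 and MYL7 were listed in neither. All marker sums were scaled within exosomes or within cells, so exosome and cell sums are not on the same scale. All 10 fibroblast markers were listed, summing to 3188 to 3326 CPM in Ang exosomes and 2961 to 3150 CPM in Con exosomes. In cells they summed to 4540 to 4955 CPM in Ang and 5098 to 5360 CPM in Con. All 8 vesicle markers were listed, at 918 to 1072 CPM in Ang exosomes and 958 to 992 CPM in Con exosomes. In cells, on their own scale, they summed to 1378 to 1417 CPM in Ang and 1337 to 1395 CPM in Con. Of 10 blood, platelet and serum markers 4 were listed in exosomes, at 3.7 to 177 CPM in Ang and 15.8 to 94.4 CPM in Con, and HBA1, HBA2 and HBB had no read in Ang exosomes. In cells 4 of these 10 were listed, not all the same ones, at 12.85 to 69.5 CPM in Ang and 16.1 to 18.2 CPM in Con. The part of any of these markers in the values of the 9 genes was not tested.

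RAI1, PABPC1L and STX4 were 4.7-fold to 23.9-fold more abundant in Ang exosomes than in Con exosomes by summed reads over scaled depth, and all 3 stood above the cells in Ang exosomes and below them in Con exosomes. In these bulk libraries more vesicles that carry a transcript and more copies in each vesicle cannot be told apart. RAI1 (ENSG00000108557, chromosome 17, 17681473 to 17811453, plus strand) had 93, 128 and 90 reads in Ang exosomes, against 20, 36 and 22 in Con exosomes. The lowest Ang library held 2.5 times the reads of the highest Con library, and on the scaled level the gap widened to 3.41-fold. RAI1 averaged 199 ± 31.6 CPM in Ang exosomes and 38.2 ± 12.8 CPM in Con exosomes (SD, n = 3 each), a fitted log2 fold change of 2.38 (SE 0.336). Cells lay between, at 151 ± 6.17 CPM in Ang and 149 ± 11.1 CPM in Con. SREBF1, which encodes a lipid-synthesis transcription factor, overlaps RAI1 on the opposite strand over 5.74% of the RAI1 exon length, and the strand setting of the counting was not stated. SREBF1 had 36, 48 and 50 reads in Ang exosomes and 38, 41 and 44 in Con exosomes, which overlapped in reads. On the CPM scale it stood at 69.9, 88.2 and 100.1 in Ang exosomes, against 54.7, 60.2 and 66.1 in Con exosomes, apart and higher in Ang as RAI1 was. Its part in the RAI1 values was not tested.

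PABPC1L (ENSG00000101104, chromosome 20, 44910062 to 44959035, plus strand) was nearly absent from Con exosomes. It had 22, 35 and 16 reads in Ang exosomes, against 2, 1 and 1 in Con exosomes. The ratio of summed reads over scaled depth was 23.9, with a 95% interval from counting error alone of 8.95 to 90.1 (exact binomial), and the gap between the nearest libraries was 11.1-fold on the CPM scale. Its level was 46.3 ± 16.4 CPM in Ang exosomes and 1.95 ± 0.805 CPM in Con exosomes (SD, n = 3 each). The cells held only 6.41 ± 1.57 CPM in Ang and 7.40 ± 2.43 CPM in Con, so Ang exosomes stood 7.23-fold above Ang cells while Con exosomes were at 0.263 of Con cells. PABPC1, the main cytoplasmic poly(A)-binding protein gene, shared no 50-base stretch with the longest annotated PABPC1L transcript. Its levels overlapped between the labels, at 1964, 1833 and 1968 CPM in Ang exosomes and 1987, 1773 and 1960 CPM in Con exosomes. A share of 1.52% of the 50-base stretches of that PABPC1L transcript recurred in other genes. It has 2223 bases, against 4984 bases of PABPC1L exon, and the rest was not searched.

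STX4 (ENSG00000103496, chromosome 16, 31032889 to 31042975, plus strand) had the tightest replicates of the 3. Its reads were 39, 45 and 38 in Ang exosomes, against 13, 12 and 9 in Con exosomes. The level was 78.2 ± 3.92 CPM in Ang exosomes and 16.6 ± 2.74 CPM in Con exosomes (log2 2.22, SE 0.412), with a gap of 4.05-fold between the nearest libraries. Cells varied more, from 30.1 to 52.4 CPM in Ang and from 34.3 to 57 CPM in Con, and lay between the exosome groups. No 50-base stretch of the longest annotated STX4 transcript recurred in another gene. That transcript has 1588 bases, against 4078 bases of STX4 exon, and the rest was not searched.

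**Figure D1:**
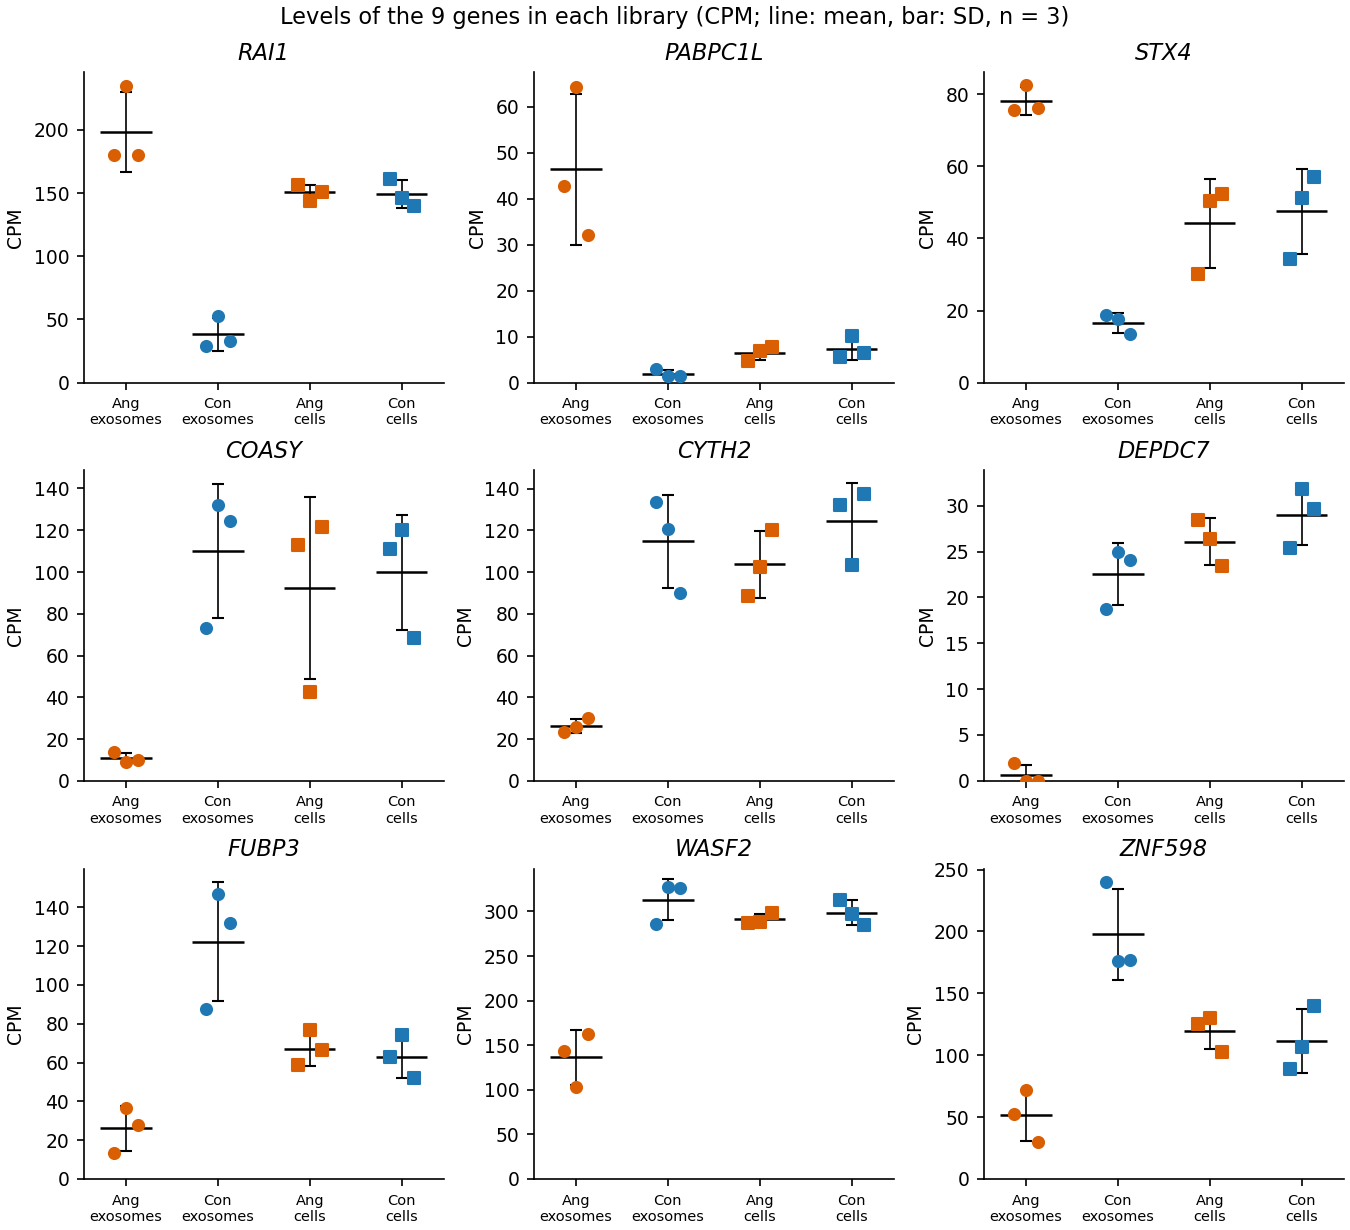
Level of each of the 9 genes in every library, in CPM on axes that start at 0, for Ang exosomes, Con exosomes, Ang cells and Con cells (points are libraries, the line is the mean and the bar the SD, n = 3). The exosome groups stay apart in every panel while the cell groups overlap, and in RAI1, PABPC1L, STX4, FUBP3 and ZNF598 the cells lie between the exosome groups.

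The 6 genes that were lower in Ang exosomes stood at 0.0285 to 0.433 of their Con exosome level by summed reads over scaled depth. COASY (ENSG00000068120, chromosome 17, 42561467 to 42566277, plus strand) had 7, 5 and 5 reads in Ang exosomes, against 51, 90 and 83 in Con exosomes. That is 10.9 ± 2.34 CPM in Ang and 110 ± 32 CPM in Con (SD, n = 3 each; log2 -3.30, SE 0.447), with a 5.4-fold gap between the nearest libraries. Con exosomes overlapped the cells, which held 92.3 ± 43.5 CPM in Ang and 99.8 ± 27.4 CPM in Con, whereas every Ang exosome library lay under the lowest cell library of 42.3 CPM. The spread of COASY in cells was wide, with 1109, 461 and 1378 reads in Ang cells, against 1117, 1251 and 824 in Con cells. AC067852.1, a gene on the same strand, shares 5.33% of the COASY exon length and was not listed in these counts.

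DEPDC7 (ENSG00000121690, chromosome 11, 33015864 to 33033582, plus strand) was at the limit of detection in Ang exosomes. It had 1, 0 and 0 reads there, against 13, 17 and 16 in Con exosomes. The Ang over Con ratio was 0.0285 with a 95% counting interval of 0.000706 to 0.167, and a count of 0 allows up to 5.51 and 6.01 CPM in the 2 Ang libraries without a read (3 reads per library). In CPM the level was 0.647 ± 1.12 in Ang exosomes and 22.6 ± 3.37 in Con exosomes. The fitted log2 fold change of -4.74 (SE 1.17) depends on the prior count and became -6.81 without Ang exosome replicate 1. Its reads were 279, 288 and 265 in Ang cells, against 256, 332 and 356 in Con cells, that is 26.1 ± 2.54 CPM in Ang cells and 29 ± 3.26 CPM in Con cells. Such counting intervals leave out the variation between libraries.

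CYTH2 (ENSG00000105443, chromosome 19, 48469032 to 48482314, plus strand) had 12, 14 and 15 reads in Ang exosomes, against 93, 82 and 60 in Con exosomes. Its level was 26.3 ± 3.41 CPM in Ang exosomes and 115 ± 22.4 CPM in Con exosomes (log2 -2.11, SE 0.362), and 104 ± 16 CPM in Ang cells and 124 ± 18.4 CPM in Con cells. Con exosomes thus overlapped the cells and Ang exosomes lay under all of them. A share of 15.5% of the 50-base stretches of its longest transcript recurred in other annotated genes. These were mainly the overlapping AC008403.2 and AC008403.1, which were not listed in these counts. WASF2 (ENSG00000158195, chromosome 1, 27404226 to 27490158, minus strand) was the most abundant of the 6 and had the smallest difference. It had 74, 56 and 81 reads in Ang exosomes, against 199, 223 and 217 in Con exosomes, or 136 ± 30.3 CPM in Ang exosomes and 313 ± 23.2 CPM in Con exosomes (log2 -1.19, SE 0.241). The gap between its nearest libraries was 1.77-fold in CPM, the narrowest of the 9. Cells held 291 ± 5.8 CPM in Ang and 299 ± 14.2 CPM in Con, again alongside Con exosomes. The pseudogene WASF4P shared 7.85% of the 50-base stretches of the longest WASF2 transcript.

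FUBP3 and ZNF598 differed from these 4 genes in where their Con exosomes stood. FUBP3 (ENSG00000107164, chromosome 9, 130578965 to 130638352, plus strand) had 7, 20 and 14 reads in Ang exosomes, against 61, 100 and 88 in Con exosomes. Its level was 26.1 ± 11.7 CPM in Ang exosomes, 122 ± 30.7 CPM in Con exosomes, 67.1 ± 9.04 CPM in Ang cells and 63 ± 11.2 CPM in Con cells (exosomes log2 -2.21, SE 0.438). ZNF598 (ENSG00000167962, chromosome 16, 1997654 to 2009823, minus strand) had 27, 39 and 15 reads in Ang exosomes, against 167, 120 and 118 in Con exosomes. It averaged 51.4 ± 20.8 CPM in Ang exosomes, 198 ± 36.8 CPM in Con exosomes, 119 ± 14.4 CPM in Ang cells and 112 ± 25.6 CPM in Con cells (exosomes log2 -1.93, SE 0.360). For both genes the Con exosome libraries were above every cell library and the Ang exosome libraries below every cell library. The lincRNA gene AC005606.1 lies opposite 10.7% of the ZNF598 exon length and was not listed in these counts.

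Read against the range of the 6 cell libraries, Ang exosomes were above it for 3 genes and below it for 6, and overlapped it for none. Con exosomes were below it for 3 genes (RAI1, PABPC1L and STX4), overlapped it for 4 (COASY, CYTH2, DEPDC7 and WASF2) and were above it for 2 (FUBP3 and ZNF598). Levels in exosomes and cells come from different library kits, so these positions cannot be told apart from an effect of the kit. In the order of the 4 group means, Ang cells and Con cells overlapped in all 9 genes. Ang exosomes stood at an end of that order and apart from their neighbour in all 9. Con exosomes stood apart at the other end in RAI1, PABPC1L, STX4, FUBP3 and ZNF598, and overlapped their neighbours in COASY, CYTH2 and WASF2. In DEPDC7 they overlapped Ang cells, the next group above them.

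**Figure D2:**
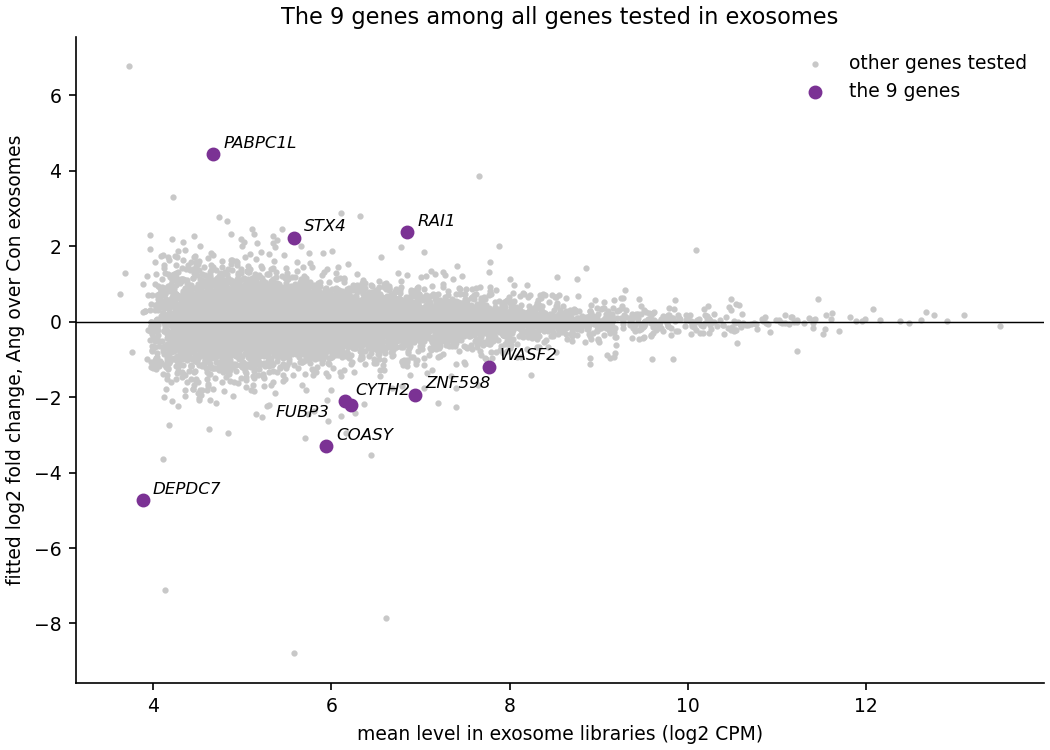
Fitted log2 fold change of Ang over Con exosomes against the mean exosome level in log2 CPM, for the 8327 genes tested, with the 9 genes coloured and named. The 3 genes higher in Ang lie between 2.22 and 4.43 and the 6 lower ones between -4.74 and -1.19.

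Non-overlap alone did not set the 9 genes apart, since 897 of 8327 tested genes (10.8%) did not overlap in CPM. A gap between the nearest libraries at least as wide as that of WASF2 was rarer and occurred in 51 genes (0.612%). WASF2 had the narrowest gap of the 9, so all 9 meet this width by construction and nothing is read from that. Over all genes tested in exosomes edgeR's quasi-likelihood test with Benjamini-Hochberg adjustment called 1 gene (0.012%), while 316 had an unadjusted p under 0.05 and DESeq2 called 16 of 8325 (0.192%). The gene called by edgeR was TXNIP, which encodes thioredoxin-interacting protein. It had 0, 1 and 0 reads in Ang exosomes, against 126, 165 and 111 in Con exosomes (edgeR adjusted p = 0.00216). The Ang over Con ratio of its summed reads over scaled depth was 0.00326, with a 95% counting interval of 8.23e-05 to 0.0183.

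In whole cells the 9 genes showed no detectable difference between Ang and Con, with CPM values that overlapped in every gene. Overlap was the usual case, since only 13.9% of the genes tested in cells did not overlap. The RAI1 counts were 1535, 1571 and 1712 in Ang cells, against 1627, 1526 and 1680 in Con cells, a log2 fold change of 0.005 (SE 0.0733, edgeR adjusted p = 0.994). WASF2 had 2820, 3145 and 3375 reads in Ang cells, against 3157, 3101 and 3422 in Con cells (log2 -0.04, SE 0.0514, edgeR adjusted p = 0.887). These 2 genes had the smallest SE of the 9 in cells. The others had log2 values of -0.27 (SE 0.156) for CYTH2, -0.21 (SE 0.301) for PABPC1L, -0.16 (SE 0.125) for DEPDC7, -0.12 (SE 0.441) for COASY, -0.11 (SE 0.283) for STX4, 0.08 (SE 0.166) for FUBP3 and 0.09 (SE 0.188) for ZNF598. PABPC1L had 46, 74 and 88 reads in Ang cells, against 56, 106 and 78 in Con cells. STX4 had 295, 548 and 593 reads in Ang cells, against 346, 536 and 684 in Con cells. Both genes thus varied from library to library within each label in cells. STX4 rose with the replicate number in both labels, and PABPC1L only in Ang.

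CYTH2 had 867, 1117 and 1362 reads in Ang cells, against 1331, 1077 and 1651 in Con cells. FUBP3 had 574, 834 and 750 reads in Ang cells, against 634, 774 and 623 in Con cells. ZNF598 had 1227, 1417 and 1166 reads in Ang cells, against 896, 1109 and 1674 in Con cells. In each of these genes the reads of the labels overlapped. Over all 13331 genes tested in cells edgeR called 0 (0%), with 816 at an unadjusted p under 0.05, and DESeq2 called 60 of the 11513 genes to which it gave an adjusted p (0.521%). None of the 9 was called by either tool or had an unadjusted p under 0.05 with edgeR. The median log2 fold change of the 9 genes in cells was -0.11. No difference between the exosome and the cell fold changes was tested, because the first was used to choose the genes.

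**Figure D3:**
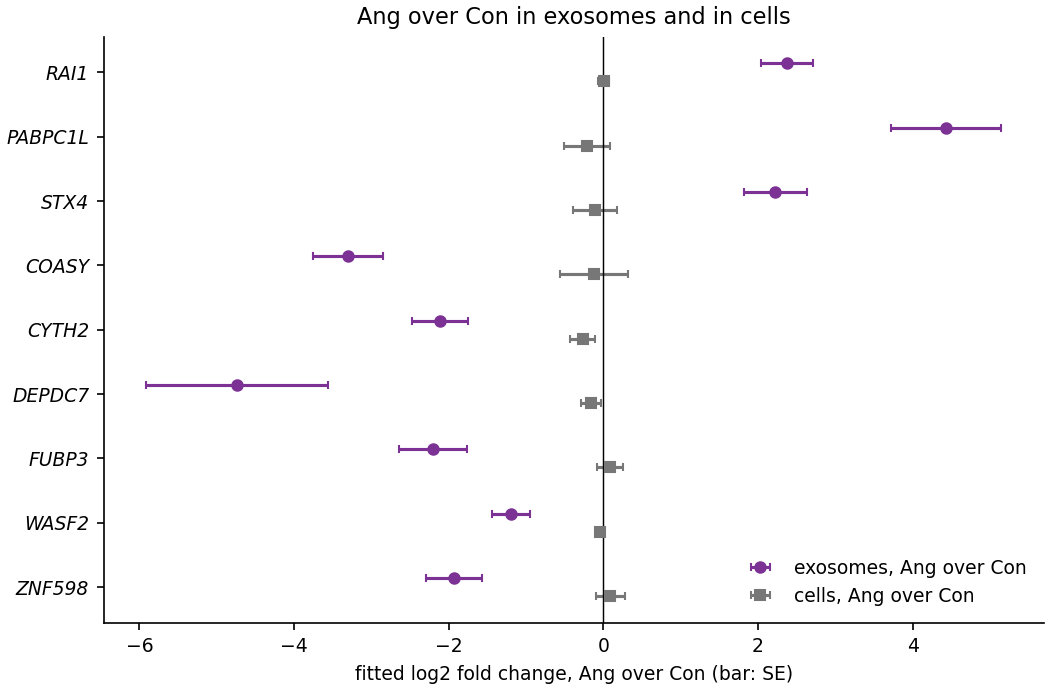
Fitted log2 fold change of Ang over Con for each of the 9 genes in exosomes (circles) and in cells (squares), with the SE as a bar (n = 3 libraries per group). In cells the values lie between -0.27 and 0.09, and in exosomes between -4.74 and 4.43.

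Averaged over both labels, the fitted level of DEPDC7 was 7.11-fold lower in exosomes than in cells (log2 -2.83, SE 0.403), and its log2 value was -5.34 without Ang exosome replicate 1. COASY was 2.77-fold lower (log2 -1.47, SE 0.313) and CYTH2 2.06-fold lower (log2 -1.05, SE 0.169). For these 3 genes Con exosomes overlapped the cells and the low values were those of Ang exosomes. RAI1 was 1.72-fold lower (log2 -0.78, SE 0.160), with Ang exosomes above the cells and Con exosomes further below them. WASF2 was 1.43-fold lower (log2 -0.51, SE 0.118). These 5 genes passed edgeR's adjusted threshold over 11811 genes. The log2 values of STX4 (-0.35, SE 0.218), FUBP3 (-0.20, SE 0.224), ZNF598 (-0.19, SE 0.202) and PABPC1L (0.47, SE 0.441) did not pass. The contrast gives equal weight to Ang and Con, but its exosome side holds the same reads by which the genes were chosen, so the calls describe the 9 genes and are not independent of that choice. Of all genes tested, 37.1% passed, 17.6% higher and 19.5% lower in exosomes, and the median was -0.51 for the 9 genes and -0.15 over all genes. With raw totals in place of scaling factors the split over all genes was 1546 higher and 3318 lower, and the same 5 genes were called, all lower.

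**Figure D4:**
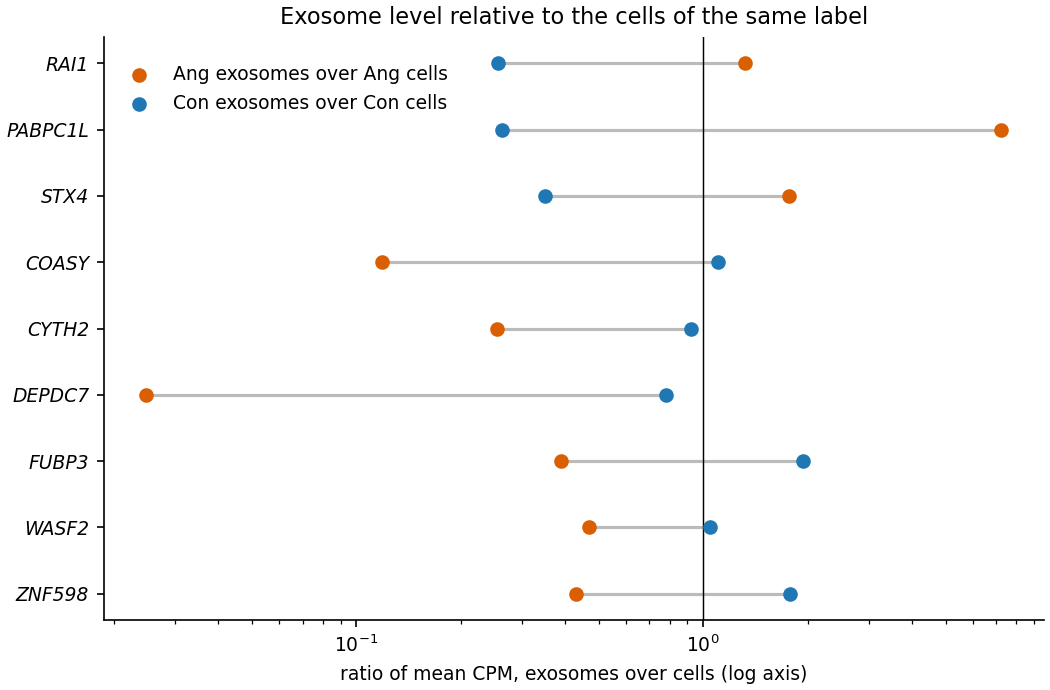
Ratio of the mean CPM in exosomes to the mean CPM in cells of the same label, on a log axis, for each of the 9 genes in Ang and in Con. Ang and Con ratios lie on opposite sides of 1 for RAI1, PABPC1L, STX4, COASY, FUBP3, WASF2 and ZNF598, and both lie below 1 for CYTH2 and DEPDC7.

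The ratio of exosome to cell level within a label puts these values on 1 scale, again across kits. Over 8326 genes its median was 1.02 in Ang and 1.04 in Con, and 72.9% of genes in Ang and 74.8% in Con were within 2-fold of 1. In Ang the ratio was 7.23 for PABPC1L, 1.77 for STX4 and 1.32 for RAI1. In Con the same genes had 0.263, 0.349 and 0.256, so all 3 were more than 2-fold below the cells. DEPDC7 had a ratio of 0.0248 in Ang and 0.779 in Con, and COASY 0.118 in Ang and 1.10 in Con. CYTH2 (0.254 in Ang, 0.923 in Con) and WASF2 (0.468 in Ang, 1.05 in Con) were likewise near the cells in Con and below them in Ang. FUBP3 (0.389 in Ang, 1.94 in Con) and ZNF598 (0.430 in Ang, 1.77 in Con) were below the cells in Ang and above them in Con.

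Per kilobase of exon, which allows genes to be compared, WASF2 was the most abundant of the 9 in every group, at 24 CPM per kb in Ang exosomes, 55.2 in Con exosomes, 51.3 in Ang cells and 52.6 in Con cells. PABPC1L was the scarcest in both cell groups, at 1.29 CPM per kb in Ang and 1.49 in Con, and in Con exosomes (0.391), but reached 9.3 in Ang exosomes. RAI1 and STX4 were close to each other in Ang exosomes (20.5 and 19.2 CPM per kb) and in Con exosomes (3.94 and 4.07). ZNF598 was at 10.9 CPM per kb in Ang exosomes and 42.1 in Con exosomes, and COASY at 2.71 in Ang exosomes and 27.3 in Con exosomes. In GC content 7 of 9 transcripts exceeded the median of 48.1% of genes tested in exosomes, while DEPDC7 (42.1%) and FUBP3 (45%) were under it. Those above ran from 52.5% in PABPC1L, higher than 63.8% of tested genes, to 65.6% in ZNF598, higher than 97.7%. Tested genes lie equally above and below a median, so the count is only a description. RAI1, at 64.1%, was of the higher genes and ZNF598 of the lower ones, and both directions thus included transcripts of high GC content. GGAG, a tetranucleotide in the motif that hnRNPA2B1 binds when it sorts small RNAs into exosomes, occurred 11.5 times per kb in RAI1, 13.8 in STX4 and 6.75 in PABPC1L, the 3 genes higher in Ang exosomes. Of the lower genes, CYTH2 held 15.1 per kb, ZNF598 11.4, FUBP3 8, WASF2 6.87, COASY 6.51 and DEPDC7 2.98. Against a median of 6.85 over tested genes, 6 of the 9 were above and 3 below. Only the longest annotated transcript of each gene was scored.

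Between Ang and Con exosomes edgeR called only TXNIP, and thus no other gene of these pathways. Of the 9 genes edgeR called none, against 0.012% of all genes, and DESeq2 called 7, against 0.192%. The 9 were chosen on this contrast, so nothing is read from either count. In 9 lists of genes related by pathway or family to the 9, edgeR called 0 of the other genes between Ang and Con in either exosomes or cells, against 0.012% and 0% of all genes tested. Of these genes 5 of 130 in exosomes and 11 of 152 in cells had an unadjusted p under 0.05, and DESeq2 called 0 in exosomes and 1 in cells. That gene was FUBP1, a relative of FUBP3 (log2 -0.52, SE 0.118, DESeq2 adjusted p = 0.0047), and edgeR did not call it. In coenzyme A synthesis, 6 other genes were tested in exosomes and ran from log2 -0.33 (PPCS, which adds cysteine to phosphopantothenate) to 0.89 (DCAKD), beside -3.30 for COASY. Among 26 ARF GTPases and their regulators the range was -0.47 (ARFGAP2) to 0.50 (IQSEC1), beside -2.11 for CYTH2. Among 19 SNAREs and their partners it was -0.58 (VAMP3) to 1.74 (STXBP2, a Munc18 protein), beside 2.22 for STX4. The 22 WAVE and Arp2/3 genes ran from -1.06 (ARPC1A) to 1.02 (BAIAP2), beside -1.19 for WASF2, and 19 genes of ribosome quality control from -0.71 (TCF25) to 0.64 (ANKZF1), beside -1.93 for ZNF598. The 14 clock genes and RAI1 partners reached down to -2.08 (PER3) and up to 0.99 (PER1), beside 2.38 for RAI1. The 14 poly(A)-binding proteins and partners ran from -0.97 (PABPC4) to 0.94 (TOB1), the 7 relatives of FUBP3 from -0.67 (HNRNPK) to 0.53 (FUBP1) and the 3 of DEPDC7 from 0.14 (DEPDC1) to 0.50 (DEPDC1B). Each of the 9 genes lay outside the range of its list, and since each was chosen on these values nothing is read from that.

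**Figure D5:**
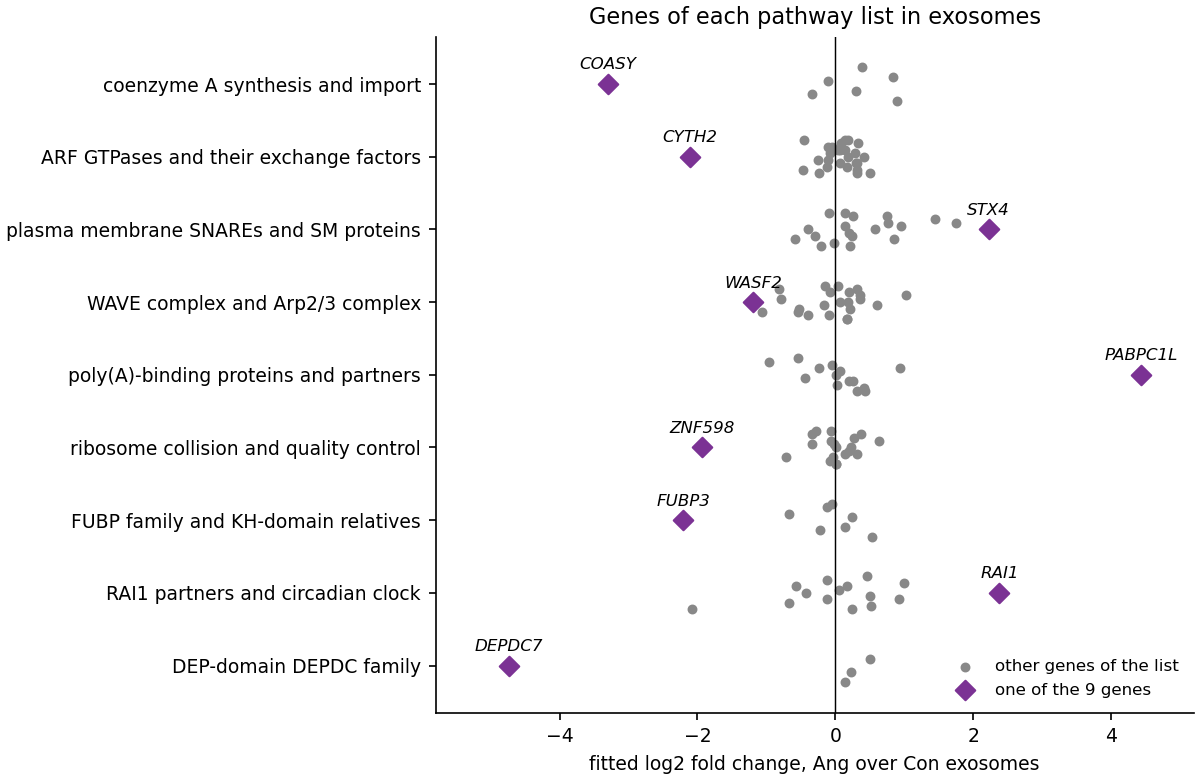
Fitted log2 fold change of Ang over Con exosomes for the genes of 9 pathway or family lists, with the gene of the list that belongs to the 9 as a diamond. The other genes lie between -2.08 and 1.74, and the diamonds between -4.74 and 4.43.

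Between exosomes and cells most of these lists held genes past the edgeR threshold in both directions, 59 of 149 genes in all (39.6%), near the 37.1% of all genes tested, so the counts per list are a description. Of the other ARF pathway genes 7 of 27 were higher and 5 lower, with the exchange factor IQSEC1 at 51.7 ± 35.2 CPM in Ang exosomes and 36.5 ± 16.7 CPM in Con exosomes, against 2.39 ± 0.817 CPM in Ang cells and 4.75 ± 3.57 CPM in Con cells (log2 3.68, SE 0.544). ARF1, a Golgi ARF, was higher in exosomes (log2 0.58, SE 0.123) and its exchange factor GBF1 lower (log2 -0.72, SE 0.112). Of 24 SNARE genes 4 were higher and 3 lower, with the neuronal syntaxin STX1A at log2 2.58 (SE 0.291) and NSF, the ATPase that takes SNARE complexes apart, at -0.66 (SE 0.163). Of 23 WAVE and Arp2/3 genes 4 were higher, among them the Arp2/3 subunits ARPC5L (log2 2.06, SE 0.184) and ARPC4 (log2 1.24, SE 0.189). The 4 lower ones included the WAVE complex subunits ABI2 (log2 -2.50, SE 0.218) and CYFIP1 (log2 -1.07, SE 0.136), which are partners of WASF2 in that complex. Of 20 ribosome quality control genes 5 were higher, including the collision sensor EDF1 (log2 1.25, SE 0.114), and 6 lower, including the kinase MAP3K20 (log2 -1.10, SE 0.175). Of 17 poly(A)-binding protein genes and partners 5 were higher and 3 lower, with PABPN1 at log2 0.48 (SE 0.139) and the scaffold EIF4G1 at -0.82 (SE 0.118). Of 17 clock genes and RAI1 partners 3 were higher, including PER1 (log2 0.81, SE 0.244), and 3 lower, including the clock repressor NR1D2 (log2 -0.70, SE 0.160). Of 10 coenzyme A genes 1 was higher (PANK1, log2 1.36, SE 0.488) and 2 lower (PANK3, log2 -0.88, SE 0.134, and DCAKD, log2 -1.16, SE 0.280). Of 7 relatives of FUBP3 the poly(C)-binding proteins PCBP1 (log2 0.69, SE 0.130) and PCBP2 (log2 0.25, SE 0.0759) were higher and none was lower. DEPDC1 was higher (log2 1.57, SE 0.166) and DEPDC5, a subunit of the GATOR1 complex, lower (log2 -0.70, SE 0.226) of 4 relatives of DEPDC7.

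The genes whose exosome profile was most like that of the 9 were found by correlating log2 CPM with the mean profile of each direction over the 6 exosome libraries, among 4158 genes at or above the median level. The libraries share the label, so the likeness includes the Ang against Con difference itself and carries no p. It scores the shape of a profile and not the size of a difference. The reads given below are not scaled for the lower depth of Ang exosomes. For RAI1, PABPC1L and STX4 the nearest were JUNB (Pearson r 0.974), an AP-1 subunit, TRIM33 (r 0.97) and ZNF593 (r 0.969). JUNB had 145, 165 and 143 reads in Ang exosomes and 122, 125 and 91 in Con exosomes. For the 6 lower genes they were TXNIP (r 0.99), the ribosomal protein gene RPL23A (r 0.981) and PABPC4 (r 0.96). RPL23A had 882, 932 and 853 reads in Ang exosomes and 1329, 1351 and 1344 in Con exosomes. PABPC4, a cytoplasmic relative of PABPC1L, ran opposite to it, with 72, 82 and 88 reads in Ang exosomes and 232, 196 and 197 in Con exosomes (log2 -0.97, SE 0.215, edgeR adjusted p = 0.611).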

How the data were processed

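RNA-seq of AC16 exosomes and cells (12 libraries) was deposited by the authors as whole-number read counts per Ensembl gene, per the file headers, with back-splice junction counts for circular RNAs in separate tables. Per the submitters' processing notes the build was GRCh38, and HISAT2 and StringTie were used. The sources used here do not give the counter, strand setting, annotation release or circular RNA caller. Per the labels' protocols, cells were processed with miRNeasy Micro and VAHTS Universal kits and exosomes with exoRNeasy Maxi and SMARTer Stranded kits, so compartment and kit cannot be told apart. Counts were fitted with edgeR 4.0.16 (limma 3.58.1, R 4.3.3): quasi-likelihood, trimmed mean of M-values scaling, filterByExpr (at least 10 reads, at least 15 in total), two-sided tests, Benjamini-Hochberg adjustment over all genes tested and a threshold of 0.05. Ang was compared with Con in each compartment (6 libraries each), and exosomes with cells over all 12 libraries. CPM of single genes carries the scaling over all 12 libraries. Marker sums, shares of genes that did not overlap in CPM, and correlations use CPM scaled within exosomes or within cells. The edgeR fits were also run on simulated counts with known changes. Those counts were drawn as independent libraries, so the run cannot check for technical replicates or pairing. Alternatives were DESeq2 1.42.0, other scalings, no filter, a replicate block, 1 fit of all 12 libraries and leaving out each library. The 3 libraries of a group are not said to be separate cultures, so p-values measure only the spread between libraries, which may be technical. Same-group libraries differed by more than sampling noise (chi-square per degree of freedom 7.61 to 8.1 in exosomes and 24.2 to 25.8 in cells), so none was merged. Counting intervals cover counting error only. Gene positions are from GENCODE 29 on GRCh38, counted from 1, and promoter windows from RefSeq GRCh38.p14. The 9 genes and all lists were chosen with earlier results of these data known. Beyond the 9, the rule named, for each pathway list, up to 4 genes called in cells or between exosomes and cells by smallest p, and the 3 genes most like the mean profile of each direction (log2 of CPM plus 1). Genes at the ends of a list's range were named after their values were seen. Small RNAs were not analysed here, and 1 gene of the named lists is not reported here.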

Additional observations from a re-analysis of the deposited data

How the results depend on the processing

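The 9 genes were chosen as non-overlapping in exosomes, and the alternatives could hardly change that, so their separation was not put to a test. Between exosomes and cells, all 153 alternative values of the 9 genes kept their direction and their side of the threshold, though on exosome reads that chose the genes. The 4380 genes called ranged from 3539 to 4535 when libraries were left out and from 3893 to 5713 otherwise. Raw totals lowered the share of calls that were higher in exosomes to 31.8%, against 47.5% with scaling. In cells the 0 genes called became 60 with DESeq2, and 0 to 3 when libraries were left out; the 3, without Con replicate 3, were ITGA3, CYB5R3 and ZNF202. In exosomes the 1 gene called (TXNIP) became 16 with DESeq2, 22 with all 12 libraries in 1 fit, 3 without the low-count filter (TXNIP, and COASY and RAI1, which were chosen on this contrast) and 0 with the replicate block. It became 1 to 4 when libraries were left out: 4 without Ang replicate 1, 3 without Ang replicate 3 and 2 without Con replicate 2. The causes were not tested. Over all genes the deviations of same-numbered libraries were nearly uncorrelated (-0.032 to 0.024). Such a correlation cannot settle whether replicate numbers pair the samples. The Ang against Con values in cells, none of them called, changed sign in 11 of 108 cases, all on leaving out a library: RAI1 ranged from -0.042 to 0.063, PABPC1L from -0.38 to 0.086, STX4 from -0.30 to 0.10, COASY from -0.37 to 0.22, FUBP3 from -0.042 to 0.22 and ZNF598 from -0.051 to 0.28 (log2). In exosomes DEPDC7 reached -6.81 without Ang replicate 1. Of the pathway genes, 59 were called between exosomes and cells, 47 to 65 when libraries were left out and 52 to 81 otherwise. Depth limits DEPDC7 and PABPC1L, with 1 and 4 reads in their lower exosome group.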

Other observations

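Circular RNAs of the 9 genes were scarce. In exosomes 1 of 939 listed circular RNAs lay in one of them, a junction of STX4 (chromosome 16, 31033718 to 31033914) with 0 reads in each Ang exosome library and 0, 0 and 3 reads in Con exosomes, the opposite order to its linear reads. In cells 2 of 5179 did. RAI1 had a junction (chromosome 17, 17792933 to 17803849) with 2, 0 and 0 reads in Ang cells and 3, 0 and 3 in Con cells. WASF2 had a junction (chromosome 1, 27443595 to 27443862) with no read in Ang cells and 2, 0 and 0 in Con cells. At these counts no difference between the labels was detectable, and none was tested.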
